A study of Mus musculus with 5 samples.

Results

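The 39 genes described here encode transcription factors that pattern the neural tube and specify neurons and glia. They were taken as a list of names that was chosen with earlier results of these data known. The list held 21 homeobox genes (Pax2, Pax3, Pax6, Pax7, Otx1, Otx2, Gbx1, Gbx2, En1, En2, Dlx1, Dlx2, Dlx5, Dlx6, Lhx1, Lhx2, Nkx2-2, Nkx6-1, Cux1, Cux2 and Satb1), 10 bHLH genes (Neurog1, Neurog2, Neurog3, Neurod1, Neurod2, Neurod4, Neurod6, Olig1, Olig2 and Olig3) and 8 others (Sox1, Sox3, Zic1, Zic2, Zic4, Zic5, Bcl11a and Bcl11b). A peak belonged to a member when the deposited list gave it that gene's name, which was so for 242 of 89451 peaks. The data were 3 ChIP-seq peak lists from mouse CP cells, the cardiac progenitor stage reached from 46C embryonic stem cells with BMP4, Activin A and VEGF and then FGF10 and bFGF. In Zhx1-KO CP cells, chromatin bound by hnRNPA1 gave 51545 peaks, of which 150 were named for members. In 46C-Ctrl CP cells, in which Zhx1 was intact, ZHX1 gave 23244 peaks with 67 named for members, and hnRNPA1 gave 14662 peaks with 25 named for members. The Zhx1-KO line was made in 46C cells with Cas9 and guides at the start and the stop of Zhx1. Each list came from 1 library, so no difference between lists was tested, and the 95% intervals below cover counting error only. The lists hold positions and names without read counts or scores, and the depth behind a peak is unknown.

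Homeobox and bHLH factors act in sequence in the nervous system. Homeobox factors divide the neural plate and tube into regions, while proneural bHLH factors such as Neurog1 commit progenitors to neurons and Neurod factors drive their differentiation. Sox1 marks neural progenitors, Zic factors act in the dorsal neural tube, and Bcl11a and Bcl11b are zinc finger repressors of cortical neurons that also act in blood. ZHX1 is a nuclear protein with zinc fingers and homeodomains, and hnRNPA1 is an abundant RNA-binding protein that takes part in splicing. The 46C line carries a GFP reporter in the Sox1 gene, so this member is an engineered locus. A peak list carries no expression, and the identity of the cells could not be checked from it.

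At 5 places in single-copy sequence near members, peaks of 2 lists covered the same bases. A stretch is called single-copy where its 32-base words have a median count below 2 in the genome. A Zhx1-KO hnRNPA1 peak and a ZHX1 peak shared 228 bp inside Gbx2 and 65 bp upstream of Pax6. A ZHX1 peak and a control hnRNPA1 peak shared 223 bp upstream of Bcl11b and 326 bp in an intron of Cux2. The hnRNPA1 peaks of Zhx1-KO and of the control shared 182 bp in intergenic sequence near Otx2, at a place named for the neighbouring transcript Otx2os1. Intergenic here means outside protein-coding genes, because noncoding genes such as Otx2os1 were left out of the annotation used. Counted by name, which leaves out the Cux2 and Otx2 places, single-copy overlaps were near the background. Zhx1-KO hnRNPA1 met ZHX1 at 2 of 126 peaks (1.59%, against 1.14% of all single-copy peaks). ZHX1 met control hnRNPA1 at 1 of 58 (1.72%, against 1.23%). Where 50% of both peaks had to be shared, the Gbx2 and Pax6 overlaps were lost. The sequences outside exons of protein-coding genes are printed to show the bases that peaks of 2 lists covered in common. They are RefSeq GRCm38 sequence on the plus strand, with capitals for bases inside both peaks: chr2:105666668-105666967 (Pax6, around the shared stretch), chr12:108005287-108005582 (Bcl11b, the whole ZHX1 peak), chr5:121926160-121926459 (Cux2, from the start of the control hnRNPA1 peak) and chr14:48715384-48715666 (Otx2).
Pax6: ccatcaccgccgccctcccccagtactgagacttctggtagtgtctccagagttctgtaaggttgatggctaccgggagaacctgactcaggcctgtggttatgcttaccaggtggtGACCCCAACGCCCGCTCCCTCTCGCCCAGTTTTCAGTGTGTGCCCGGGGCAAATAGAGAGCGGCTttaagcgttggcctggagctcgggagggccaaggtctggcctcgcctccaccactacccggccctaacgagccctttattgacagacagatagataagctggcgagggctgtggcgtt
Bcl11b: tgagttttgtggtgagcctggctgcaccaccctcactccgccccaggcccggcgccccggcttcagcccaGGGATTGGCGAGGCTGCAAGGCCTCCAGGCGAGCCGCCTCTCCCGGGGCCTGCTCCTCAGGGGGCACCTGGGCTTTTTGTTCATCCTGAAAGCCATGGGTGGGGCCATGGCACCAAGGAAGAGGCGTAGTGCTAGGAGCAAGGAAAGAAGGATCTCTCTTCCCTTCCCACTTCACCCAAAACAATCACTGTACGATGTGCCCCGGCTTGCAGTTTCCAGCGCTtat
Cux2: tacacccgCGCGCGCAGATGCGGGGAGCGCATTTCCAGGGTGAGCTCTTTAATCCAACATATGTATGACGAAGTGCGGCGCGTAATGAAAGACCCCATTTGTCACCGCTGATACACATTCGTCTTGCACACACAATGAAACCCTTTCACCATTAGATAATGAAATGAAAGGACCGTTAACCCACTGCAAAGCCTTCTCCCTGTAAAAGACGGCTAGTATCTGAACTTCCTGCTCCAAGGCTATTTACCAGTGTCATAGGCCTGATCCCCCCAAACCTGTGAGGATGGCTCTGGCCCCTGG
Otx2: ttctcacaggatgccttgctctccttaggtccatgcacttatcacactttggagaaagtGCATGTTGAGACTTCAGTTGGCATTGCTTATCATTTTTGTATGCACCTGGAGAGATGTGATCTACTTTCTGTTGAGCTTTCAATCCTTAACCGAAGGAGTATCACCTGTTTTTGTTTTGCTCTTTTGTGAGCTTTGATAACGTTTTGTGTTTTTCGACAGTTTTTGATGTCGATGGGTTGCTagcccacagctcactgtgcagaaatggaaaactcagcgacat

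A larger share of members than of all protein-coding genes had a promoter peak in the Zhx1-KO hnRNPA1 and ZHX1 lists. A promoter peak was one that overlapped the 2 kb on either side of any annotated transcription start site (TSS) of the gene. Such a peak was present in Zhx1-KO hnRNPA1 at 15 of 39 members (38.5%, 24.9 to 54.1%), against 21.0% of 21924 protein-coding genes. For ZHX1 it was present at 10 members (25.6%, 14.6 to 41.1%), against 12.1% of all genes. Control hnRNPA1 had one at 3 members (7.69%, 2.65 to 20.3%), against 6.77% of all genes. The intervals of the first 2 lists lay above the share of all genes, and that of control hnRNPA1 included it. Because the members were chosen with earlier results of these data known, these intervals describe the list and do not test it. Counted per length of promoter sequence, the 19 promoter peaks of members in Zhx1-KO hnRNPA1 gave 61.0 per Mb (36.8 to 95.3), against 29.5 per Mb over all genes. ZHX1 had 12 such peaks, or 38.6 per Mb (19.9 to 67.3), against 15.5 per Mb, and control hnRNPA1 had 4, or 12.9 per Mb (3.50 to 32.9), against 8.61 per Mb. The median number of TSS was 2 in members and 3 in all genes.

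The lists differ in length, and the Zhx1-KO hnRNPA1 count was lower at equal length. When each list was limited to its 14662 widest peaks, 7 members had a promoter peak in Zhx1-KO hnRNPA1 (17.9%, 8.98 to 32.7%), 8 in ZHX1 (20.5%, 10.8 to 35.5%) and 3 in control hnRNPA1, against 7.27%, 8.27% and 6.77% of all genes. Zhx1-KO hnRNPA1 then no longer had more marked members than ZHX1. Within 1 kb of a TSS, 12 members were marked in Zhx1-KO hnRNPA1 (30.8%, 18.6 to 46.4%), 4 in ZHX1 (10.3%, 4.06 to 23.6%) and 1 in control hnRNPA1 (2.56%, 0.454 to 13.2%), against 15.2%, 8.51% and 4.23% of all genes, so the ZHX1 interval included the share of all genes. Within 5 kb the ZHX1 interval (18.6 to 46.4%, against 20.3%) included it as well, and with peaks wider than their list's median the Zhx1-KO interval did (10.8 to 35.5%, against 11.9%). All 35 promoter peaks lay in single-copy sequence, whereas 9.49% of the promoter peaks of all genes in Zhx1-KO hnRNPA1 did not.

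**Figure D1:**
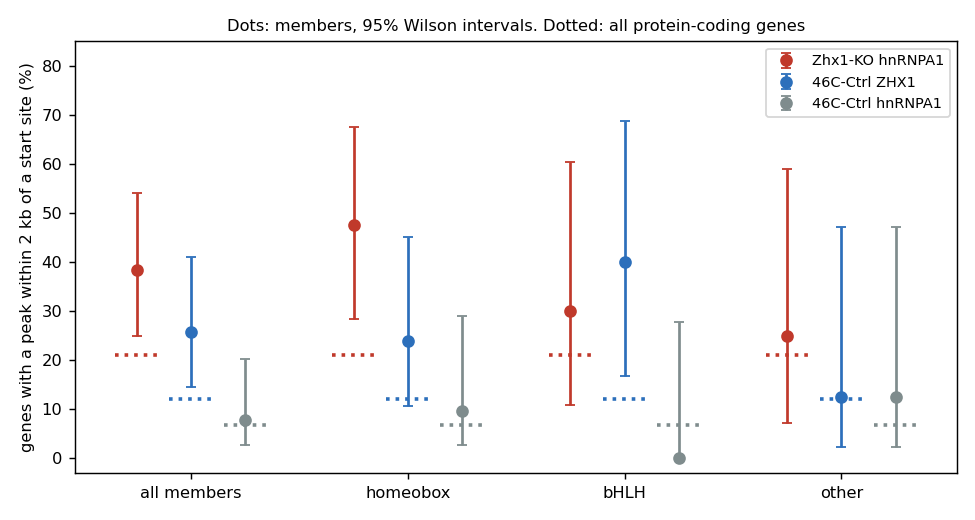
Share of genes with a peak within 2 kb of a start site (%), for all 39 members and for the homeobox, bHLH and other members, by list. Dots are members with 95% Wilson intervals and dotted lines are all protein-coding genes. The Zhx1-KO hnRNPA1 dot for all members stands at 38.5% above its line at 21.0%, and the ZHX1 dot at 25.6% above 12.1%.

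A promoter peak in any list was found at 19 members, and the lists differed in which ones they held. Pax6, Otx2, Gbx2, Neurog1 and Neurod2 had one in both Zhx1-KO hnRNPA1 and ZHX1 and none in control hnRNPA1. This pattern took 12.8% of members and 3.25% of all genes. It was not particular to the members, and took 11.1% of 36 cardiac progenitor regulators, 10.3% of 39 Hox genes and 7.27% of 55 other neural factors. Pax3, Pax7, En1, Dlx2, Lhx1, Lhx2, Olig3 and Bcl11a had one in Zhx1-KO hnRNPA1 alone, which was 20.5% of members and 15.5% of all genes. Cux1, Neurog3 and Olig1 had one for ZHX1 alone (7.69% of members and 7.30% of all genes), and Otx1 had one for control hnRNPA1 alone (2.56% and 3.60%), both close to the background. Cux2 and Bcl11b had one in all 3 lists (5.13% and 0.575%). Of the 15 members with a Zhx1-KO hnRNPA1 promoter peak, 7 also had a ZHX1 one (46.7% of the 15 and 70.0% of the 10 with ZHX1), where all genes gave 18.2% and 31.7%. The other 20 members had no promoter peak: Pax2, Gbx1, En2, Dlx1, Dlx5, Dlx6, Nkx2-2, Nkx6-1, Satb1, Neurog2, Neurod1, Neurod4, Neurod6, Olig2, Sox1, Sox3, Zic1, Zic2, Zic4 and Zic5.

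The classes could not be told apart at these counts. In Zhx1-KO hnRNPA1, a promoter peak was present at 10 of 21 homeobox genes (47.6%, 28.3 to 67.6%), 3 of 10 bHLH genes (30.0%, 10.8 to 60.3%) and 2 of 8 others. For ZHX1 the numbers were 5 homeobox (23.8%, 10.6 to 45.1%), 4 bHLH (16.8 to 68.7%) and 1 other (12.5%). Control hnRNPA1 had 2 homeobox promoters, 0 bHLH promoters (interval up to 27.7%) and 1 other. The order of homeobox and bHLH thus differed between Zhx1-KO hnRNPA1 and ZHX1, and the intervals overlapped widely in each list. Homeobox members have a median of 3 TSS and bHLH members of 1, so the searched promoter sequence was 0.213 Mb for 21 homeobox genes and 0.0401 Mb for 10 bHLH genes. Per Mb of it, Zhx1-KO hnRNPA1 had 65.9 peaks at homeobox and 74.8 at bHLH promoters, and ZHX1 had 32.9 and 99.8.

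Gbx2, which sets the anterior hindbrain apart from the midbrain, carried the widest promoter peak of any member. The gene is at chr1:89927956-89931179 on the minus strand. The Zhx1-KO hnRNPA1 peak at chr1:89930189-89931164 was 976 bp wide, centred 503 bp into the gene over its 5′ UTR and coding sequence, with a GC content of 71.5%. A ZHX1 peak of 228 bp at chr1:89930843-89931070 lay wholly inside it. A further ZHX1 peak lay in the UTR at chr1:89928278-89928830, and a further Zhx1-KO hnRNPA1 peak lay past the gene's end at chr1:89927308-89927663. Gbx2 had 5 Zhx1-KO hnRNPA1 peaks and 4 ZHX1 peaks by name, and 0 control hnRNPA1 peaks. Of these, 2 Zhx1-KO hnRNPA1 and 2 ZHX1 peaks lay inside another gene, Agap1, 81.9 to 112.6 kb from a Gbx2 TSS.

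Pax6, the paired-box factor of eye, forebrain and ventral neural tube, is at chr2:105668900-105697364 on the plus strand and has 24 annotated TSS, the most of any member. A Zhx1-KO hnRNPA1 peak at chr2:105682527-105682774 lay over an internal TSS, centred 13 bp from it. The ZHX1 peaks lay at chr2:105666785-105667219, centred 1899 bp upstream of the first TSS, and at chr2:105676631-105676975, 673 bp past an internal TSS. The Zhx1-KO hnRNPA1 peak that shares the printed 65 bases with the upstream ZHX1 peak, chr2:105666626-105666849, was centred 2.16 kb upstream and ended just outside the promoter window. Control hnRNPA1 had no peak named Pax6 and 1 named for the adjoining transcript Paupar.

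At Bcl11b the 3 lists marked 2 places. ZHX1 (chr12:108005287-108005582) and control hnRNPA1 (chr12:108005357-108005579) lay upstream of the gene, centred 1832 and 1865 bp from the first TSS, and all of the control hnRNPA1 peak was inside the ZHX1 peak. The Zhx1-KO hnRNPA1 peak lay in an intron at chr12:108002673-108003087, 535 bp past an internal TSS, in sequence with 77.6% GC. The gene runs from 107910403 to 108003602 on the minus strand. No Zhx1-KO hnRNPA1 peak covered the upstream place.

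Cux2, a marker of upper-layer cortical neurons at chr5:121856366-122050102 on the minus strand, likewise had a place shared by ZHX1 and control hnRNPA1 and not by Zhx1-KO hnRNPA1. ZHX1 (chr5:121926168-121926592) and control hnRNPA1 (chr5:121926160-121926493) met in an intron, at a place that both lists named Pheta1. The 3 Zhx1-KO hnRNPA1 promoter peaks lay elsewhere in the gene, at chr5:121896034-121896268, chr5:121914089-121914363 and chr5:122047488-122047954, the last of them 105 bp past an internal TSS. A further control hnRNPA1 promoter peak, at chr5:122003787-122004067 and 1582 bp upstream of an internal TSS, overlapped no peak of the other lists. The gene body of Cux2 held 9 Zhx1-KO hnRNPA1, 5 ZHX1 and 2 control hnRNPA1 peaks. At its paralogue Cux1 (chr5:136248135-136567490), the gene body held 1 Zhx1-KO hnRNPA1 peak, 8 ZHX1 peaks and 0 control hnRNPA1 peaks, so that ZHX1, the list of middle length, had most peaks there.

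**Figure D2:**
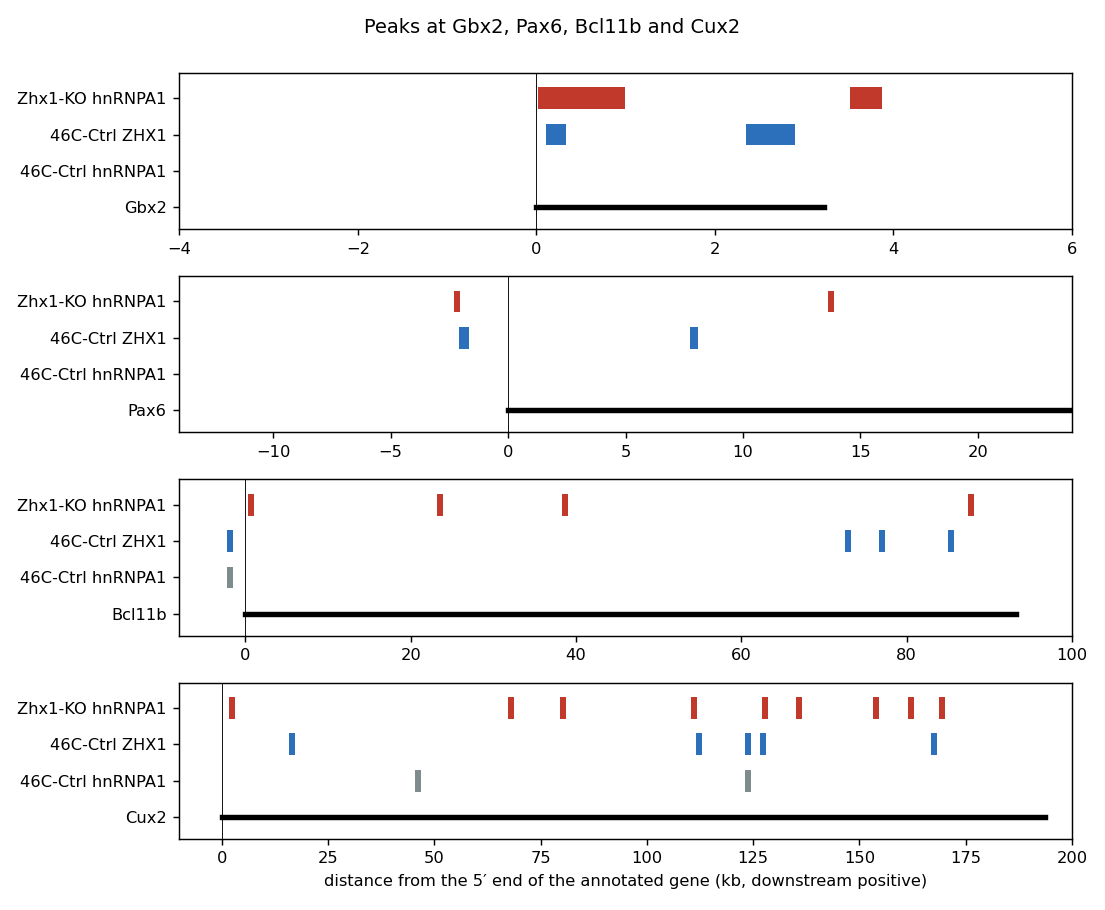
Peaks of the 3 lists at Gbx2, Pax6, Bcl11b and Cux2, plotted by distance from the 5′ end of the annotated gene (kb, downstream positive), with the gene as a black line, the narrowest peaks drawn at a minimum width, and Pax6 cut short at its right. The first Gbx2 ZHX1 peak of 228 bp sits within the Zhx1-KO hnRNPA1 peak of 976 bp, and the ZHX1 and control hnRNPA1 peaks coincide upstream of Bcl11b and inside Cux2.

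Otx2, Neurod2 and Neurog1 had Zhx1-KO hnRNPA1 and ZHX1 promoter peaks that did not overlap. At Otx2, the forebrain and midbrain determinant, the Zhx1-KO hnRNPA1 peak (chr14:48673982-48674243) lay 293 bp upstream of the TSS and the ZHX1 peak (chr14:48668753-48668980) lay inside the gene, and both were named Otx2os1. At Neurod2, a differentiation factor of cortical excitatory neurons, the Zhx1-KO hnRNPA1 peak (chr11:98327815-98328175) was in the coding exon, 1654 bp past the TSS, and the ZHX1 peak (chr11:98328397-98328761) was in the intron, 1070 bp past it. At Neurog1, the Zhx1-KO hnRNPA1 peak (chr13:56251096-56251319) reached into the coding exon and the ZHX1 peak (chr13:56253982-56254209) lay 1932 bp upstream. The pair at Neurod2 were thus next to each other, and those at Otx2 and Neurog1 lay on different sides of a TSS or at different TSS.

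Among promoters marked in Zhx1-KO hnRNPA1 alone, distances from the nearest TSS to the peak centre ran from 88 bp to 1561 bp. The closest was at Dlx2, a factor of ventral forebrain interneurons (chr2:71546555-71546779). Lhx1, a LIM homeobox factor, had its peak 191 bp upstream of a TSS, and Pax3 (dorsal neural tube and neural crest) had one in an intron 292 bp past a TSS. Lhx2, a LIM homeobox factor of forebrain and eye, had 2, at chr2:38351132-38351604 and chr2:38354307-38354530. En1 and Olig3 had theirs in coding sequence, 1198 and 522 bp from the TSS. Pax7 had its peak 1103 bp past a TSS, and Bcl11a had its own 1561 bp upstream.

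ZHX1 alone marked Neurog3 638 bp upstream of a TSS, Cux1 1165 bp past one and Olig1 1446 bp past its TSS. The Cux1 peak was named Mir721. Control hnRNPA1 alone marked Otx1, 902 bp past a TSS (chr11:22000527-22000901). These 4 promoters had no Zhx1-KO hnRNPA1 peak, although that list is the longest.

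**Figure D3:**
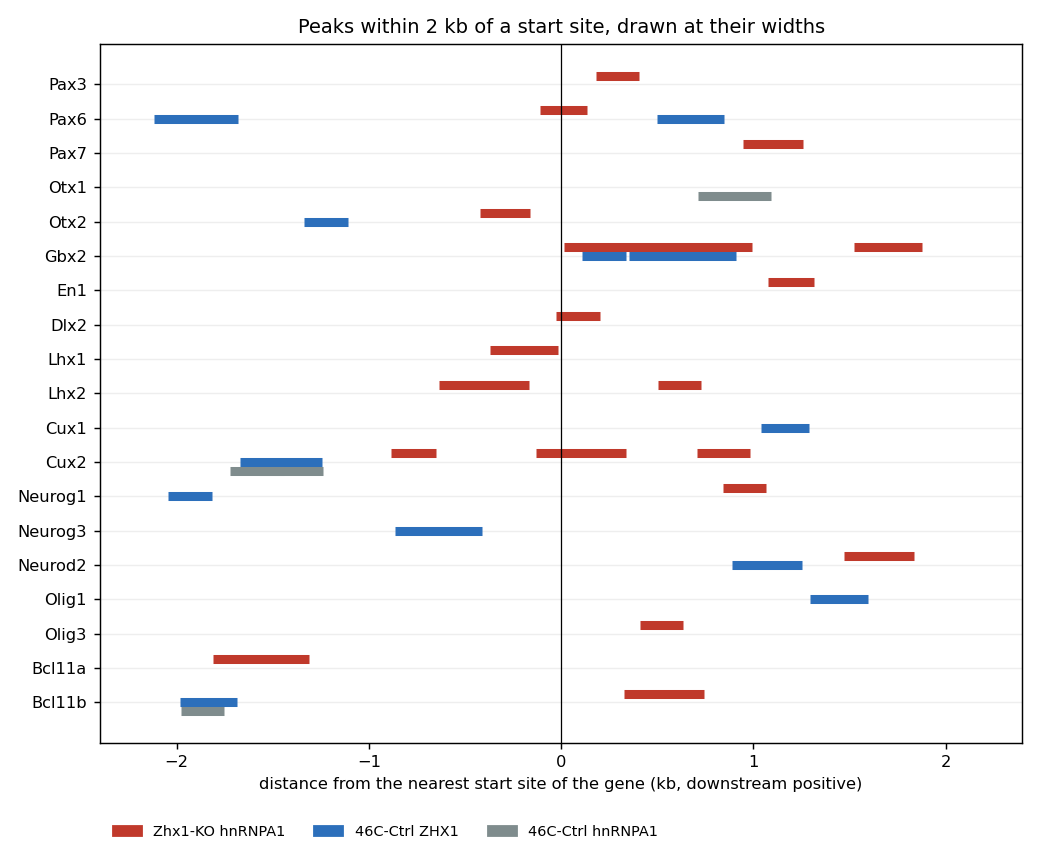
Promoter peaks of the 19 members that had one, drawn at their widths by distance from the nearest start site of the gene (kb, downstream positive), with each list in its own colour. Each bar is placed by its own nearest start site, so bars of one gene can refer to different start sites (Gbx2, Pax6, Cux2, Otx2, Lhx2, Bcl11b). ZHX1 and control hnRNPA1 bars coincide at Cux2 and Bcl11b, and 15 genes carry a Zhx1-KO hnRNPA1 bar.

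Peaks inside coding exons were seen at members in Zhx1-KO hnRNPA1, and in 2 families they fell on matching parts of paralogues. A peak centred in coding sequence was found 9 times among the 150 Zhx1-KO hnRNPA1 peaks (6.0%, 3.19 to 11%), against 3.71% of all peaks of that list. They lay in En1 (2 peaks), En2, Gbx2, Neurog1, Neurod2, Olig3, Bcl11a and Bcl11b. ZHX1 had 0 of 67 (interval up to 5.42%), against 3.27% of all its peaks. Both intervals included the share of all peaks of their list. Control hnRNPA1 had 1 of 25, in an exon of the kinase gene Alpk1 that was named Neurog2. All of these peaks lay in single-copy sequence. The 9 Zhx1-KO peaks were aligned with each other in all 36 pairs, after their positions had been seen. The highest scores were those of Bcl11a with Bcl11b and of En1 with En2. The Bcl11a and Bcl11b peaks shared a stretch of 186 bases with 150 identical (80.6%), and the En1 and En2 peaks a stretch of 169 bases with 141 identical (83.4%), in the exon that encodes the homeodomain. The third pair, Neurod2 with Olig3, had only 45 bases in its stretch. The longest run of identical bases was 20 in the Bcl11 pair and 17 in the En pair, shorter than the 32-base words used for copy number. Whether reads of one paralogue were placed on the other was not tested.

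The 4 stretches are printed in the direction of transcription, from RefSeq GRCm38, with capitals for the bases that differ within a pair. There are 36 such bases in the Bcl11 pair and 28 in the En pair. They are chr11:24164773-24164958 (Bcl11a, plus strand), chr12:107915623-107915808 (Bcl11b, minus strand), chr1:120606977-120607145 (En1, plus strand) and chr5:28170223-28170391 (En2, plus strand).
Bcl11a: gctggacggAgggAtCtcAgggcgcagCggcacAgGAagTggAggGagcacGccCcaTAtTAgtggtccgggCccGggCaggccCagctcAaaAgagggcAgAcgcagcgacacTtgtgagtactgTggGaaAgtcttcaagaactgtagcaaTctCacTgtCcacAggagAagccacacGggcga
Bcl11b: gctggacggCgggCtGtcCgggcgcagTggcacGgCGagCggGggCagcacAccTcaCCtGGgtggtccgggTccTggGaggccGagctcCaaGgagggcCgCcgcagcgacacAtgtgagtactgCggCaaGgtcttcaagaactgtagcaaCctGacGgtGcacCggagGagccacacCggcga
En1: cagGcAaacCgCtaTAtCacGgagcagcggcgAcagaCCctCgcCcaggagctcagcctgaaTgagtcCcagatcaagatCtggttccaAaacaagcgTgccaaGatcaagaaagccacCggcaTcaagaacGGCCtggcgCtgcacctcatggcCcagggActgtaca
En2: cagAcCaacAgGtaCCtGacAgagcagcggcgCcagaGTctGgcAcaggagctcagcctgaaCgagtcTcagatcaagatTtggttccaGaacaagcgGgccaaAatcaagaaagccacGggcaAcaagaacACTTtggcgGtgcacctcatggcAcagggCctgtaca

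By deposited name, most members had a peak in the Zhx1-KO hnRNPA1 list and fewer in the shorter lists. At least 1 peak was named for 32 members in Zhx1-KO hnRNPA1 (82.1%, 67.3 to 91.0%), against 57.7% of all protein-coding genes. ZHX1 had 27 (69.2%, 53.6 to 81.4%), against 40.5%, and control hnRNPA1 had 16 (41.0%, 27.1 to 56.6%), against 31.2%. Shares above those of all genes were not particular to the members. In the same order of lists, they were 86.1%, 63.9% and 44.4% for 36 cardiac progenitor regulators and 74.55%, 74.55% and 56.4% for 55 other neural factors. The 39 Hox genes went the other way, with 33.3%, 28.2% and 5.13%. Members stand far from their neighbours, with a median territory of 147 kb against 44.9 kb for all genes, where territory is the sequence nearer to a TSS of the gene than to one of any other protein-coding gene. Territory was not held constant in these shares. Counted instead by overlap with the gene body, 17, 12 and 5 members had a peak in Zhx1-KO hnRNPA1, ZHX1 and control hnRNPA1. These were 43.6%, 30.8% and 12.8% of members, against 42.3%, 28.1% and 20.4% of all genes, so by gene body the shares of members in Zhx1-KO hnRNPA1 and ZHX1 were near those of all genes and that in control hnRNPA1 was lower, with an interval (5.60 to 26.7%) that included it. Gene bodies of members are short, with a median of 6.86 kb against 17.4 kb for all genes.

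All 3 lists named 15 members (38.5%, against 17.9% of all genes), and 10 were named in Zhx1-KO hnRNPA1 and ZHX1 only (25.6%, against 14.2%). Named in all 3 were also 41.8% of the other neural factors, 27.8% of the cardiac progenitor regulators and 2.56% of the Hox genes. The patterns with fewer lists were near or below the background, with 6 members in Zhx1-KO hnRNPA1 only (15.4%, against 18.0%), 1 in both hnRNPA1 lists only (2.56%, against 7.65%) and 2 in ZHX1 only (5.13%, against 6.35%). The 5 members that no list named were Dlx6, Nkx2-2, Sox3, Zic2 and Zic5, which was 12.8% of members, against 30.2% of all genes. In 16 of 39 members a Zhx1-KO hnRNPA1 peak was named and no control hnRNPA1 peak, a pattern with a background of 32.2% of all genes. The reverse was found in 0 members, with a background of 5.64%. The 16 were Pax6, Otx2, Gbx1, Gbx2, En1, Dlx1, Dlx2, Lhx1, Satb1, Neurog3, Neurod2, Neurod4, Neurod6, Olig2, Olig3 and Sox1. By territory instead of name, Pax6, Otx2, Lhx1, Satb1, Olig3 and Sox1 did have control hnRNPA1 peaks. Gbx1 and Dlx1 had no Zhx1-KO hnRNPA1 peak in their territory, and the rest of the 16 kept the pattern. Named members by class were 17 of 21 homeobox, 10 of 10 bHLH and 5 of 8 other genes in Zhx1-KO hnRNPA1. ZHX1 named 15, 7 and 5 of them, and control hnRNPA1 named 8, 4 and 4. The bHLH genes had few named peaks each (22 in all in Zhx1-KO hnRNPA1, 10 in ZHX1 and 4 in control hnRNPA1), and every one was named in the first list. By territory, Neurog2 and Neurod1 had no peak in any list. The median territory was 56.5 kb for bHLH members, against 157.5 kb for homeobox members.

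**Figure D4:**
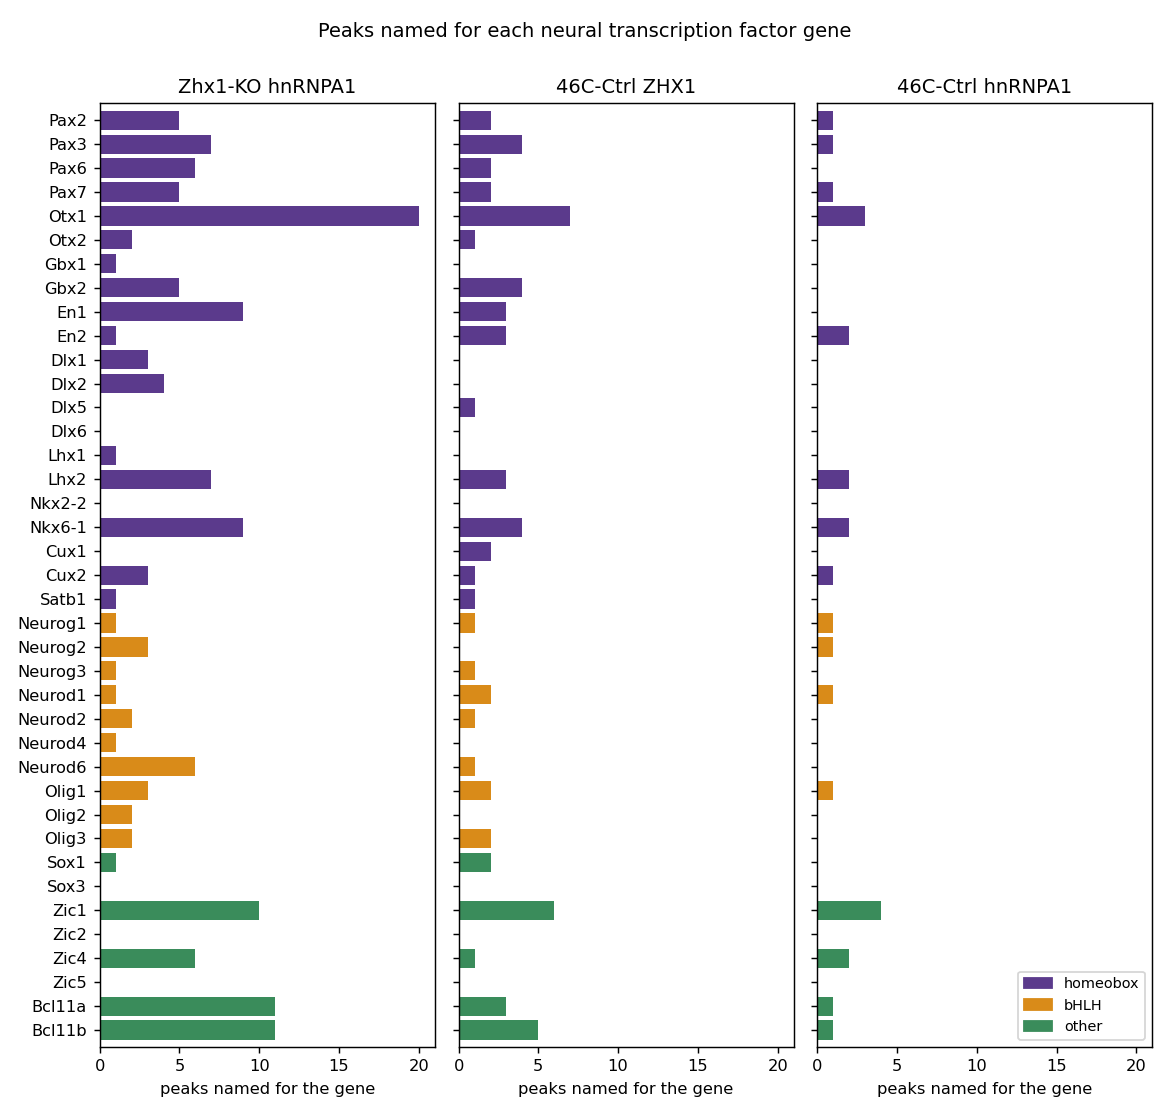
Number of peaks named for each of the 39 members in Zhx1-KO hnRNPA1, ZHX1 and control hnRNPA1, coloured by class. Otx1 reaches 20 peaks in Zhx1-KO hnRNPA1 and 7 in ZHX1, and Zic1 leads control hnRNPA1 with 4.

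Peaks were concentrated on a few members. Otx1, a forebrain homeobox gene at chr11:21994764-22002897, had 20 peaks in Zhx1-KO hnRNPA1, 7 in ZHX1 and 3 in control hnRNPA1. Of the 20 Zhx1-KO peaks, 9 lay inside its neighbour Ehbp1 and 6 inside Wdpcp, and none lay in Otx1 itself. They reached 210 kb past the TSS and 140.5 kb before it. The one peak inside the Otx1 gene body was the control hnRNPA1 promoter peak.

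En1, the midbrain-hindbrain boundary factor, had 9 Zhx1-KO hnRNPA1, 3 ZHX1 and 0 control hnRNPA1 peaks. Besides the 2 coding peaks, its Zhx1-KO peaks were intergenic and lay up to 210 kb away. Its paralogue En2 had 1, 3 and 2 peaks in the same order of lists, so En2 was the only homeobox member besides Dlx5 and Cux1 with fewer named peaks in Zhx1-KO hnRNPA1 than in ZHX1. Among the remaining homeobox genes, Nkx6-1 (a ventral neural tube factor) had 9, 4 and 2, Pax3 and Lhx2 had 7 each in Zhx1-KO hnRNPA1, and Pax6 had 6, 2 and 0. Of the 6 Zhx1-KO hnRNPA1 peaks named Pax6, 4 lay inside another gene, Elp4. All Nkx6-1 peaks were intergenic, and the farthest, in control hnRNPA1, was 382 kb from the TSS. Dlx1 and Dlx2, a pair of adjoining genes, had 3 and 4 Zhx1-KO hnRNPA1 peaks, against 0 in ZHX1 and 0 in control hnRNPA1. The 3 Dlx1 peaks lay in introns of the neighbouring gene Metap1d.

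Of the bHLH genes, Neurod6, a factor of cortical pyramidal neurons, had most peaks, with 6 in Zhx1-KO hnRNPA1, 1 in ZHX1 and 0 in control hnRNPA1. None of them lay in the gene, and 2 of the 6 were multi-copy. Olig1, an oligodendrocyte factor, had 3, 2 and 1, and its neighbour Olig2 had 2, 0 and 0. Neurog2, a proneural factor, had 3 in Zhx1-KO hnRNPA1, 0 in ZHX1 and 1 in control hnRNPA1, and was the one member named in both hnRNPA1 lists but not for ZHX1. The other bHLH genes had at most 2 peaks in any list.

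Bcl11a and Bcl11b had 11 Zhx1-KO hnRNPA1 peaks each. ZHX1 had 3 and 5 at them, and control hnRNPA1 1 each. Zic1 had 10, 6 and 4, and Zic4, with which it shares a head-to-head promoter region on chromosome 9, had 6, 1 and 2. None of the Zic1 peaks was near Zic1. They lay 83.6 to 509 kb from its TSS, and the nearest TSS to each was one of Zic4. Of the Zic1 peaks, 7 of 10 in Zhx1-KO hnRNPA1, 5 of 6 in ZHX1 and 3 of 4 in control hnRNPA1 were in multi-copy sequence. Sox1 had 1, 2 and 0 peaks. Sox3, on the X chromosome with a territory of 296 kb, had no peak in its territory in any list.

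Names and positions differed for part of these peaks. The member was also the protein-coding gene with the nearest TSS for 115 of 150 Zhx1-KO hnRNPA1, 50 of 67 ZHX1 and 19 of 25 control hnRNPA1 peaks. Taken by nearest TSS, 187, 88 and 42 peaks belonged to members, and 37 of the 39 members had a peak by name or by nearest TSS in some list. Sox3 and Zic5 had neither. Many peaks close to members carried the name of a neighbouring transcript. Such were Otx2os1 (4 in Zhx1-KO hnRNPA1, 1 in ZHX1 and 1 in control hnRNPA1), Lhx1os (2, 1 and 2), Paupar beside Pax6 (2, 1 and 1), Dlx6os1 (3 in Zhx1-KO hnRNPA1 and 2 in control hnRNPA1) and Sox1ot (2 in control hnRNPA1). By position, Sox1 and Dlx6 thus had 2 control hnRNPA1 peaks each, where by name they had 0. In Zhx1-KO hnRNPA1 the largest change was at Bcl11a, whose territory of 805 kb held 25 Zhx1-KO hnRNPA1, 8 ZHX1 and 3 control hnRNPA1 peaks.

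The ratio between lists depended on which assignment was used. By name, members had 6.0 Zhx1-KO hnRNPA1 peaks for each control hnRNPA1 peak, by nearest TSS 4.45, and over all peaks the ratio was 3.52. For ZHX1 against control hnRNPA1 the ratios were 2.68, 2.10 and 1.59. As a share of both hnRNPA1 lists, control peaks made up 14.3% by name (9.87 to 20.2%) and 18.3% by nearest TSS (13.9 to 23.9%), against 22.2% over all peaks, so the interval by nearest TSS included the share of all peaks and the interval by name did not. The ZHX1 and control hnRNPA1 lists gave control shares of 27.2% by name (19.1 to 37.0%) and 32.3% by nearest TSS (24.9 to 40.7%), against 38.7%.

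Most named peaks lay far from the gene. From peak centre to TSS, the median member peak stood 49.5 kb away for Zhx1-KO hnRNPA1, 56.1 kb for ZHX1 and 47.8 kb for control hnRNPA1. Within 10 kb lay 28, 15 and 7 peaks, and beyond 100 kb lay 43, 20 and 8. Distances were shortest for bHLH genes in the Zhx1-KO hnRNPA1 and ZHX1 lists, with medians of 26.3 and 13.1 kb, against 42.0 and 50.7 kb for homeobox and 116 and 100 kb for other genes. In control hnRNPA1 the medians were 28.3 kb for homeobox, 32.5 kb for bHLH and 228 kb for other genes. The homeobox and bHLH medians stood in the opposite order there. Median territories were 56.5 kb for bHLH, 157.5 kb for homeobox and 221.8 kb for other genes, and territory was not held constant in these distances. From peak centre to the nearest TSS of any protein-coding gene, member medians in Zhx1-KO hnRNPA1, ZHX1 and control hnRNPA1 were 43.6, 45.0 and 33.1 kb. All peaks of these lists had medians of 31.3, 28.3 and 26.5 kb.

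Few member peaks of one list overlapped those of another. By name, 2 of 150 Zhx1-KO hnRNPA1 peaks overlapped a control hnRNPA1 peak by at least 1 bp (1.33%, against 1.26% of all peaks), which was 2 of the 25 control peaks (8.0%, against 4.41%). These were at Zic1 and Neurod1, both in multi-copy sequence. In single-copy sequence 0 of 126 overlapped, against 0.569% of all single-copy peaks. Zhx1-KO hnRNPA1 and ZHX1 overlapped at 4 of 150 peaks (2.67%, against 1.99%), and at 2 of 126 in single-copy sequence (1.59%, against 1.14%), the Gbx2 and Pax6 places described above. ZHX1 and control hnRNPA1 overlapped at 2 of 67 (2.99%, against 2.60%), and 1 of 58 in single-copy sequence (1.72%, against 1.23%), at Bcl11b. The one place near members held by all 3 lists was 425 kb from Zic1, on chromosome 9 around 90938295 to 90938305, where the peaks had 11 bp in common and median copy numbers of 108.5 in Zhx1-KO hnRNPA1, 91 in ZHX1 and 107 in control hnRNPA1.

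Peaks of 2 lists at one member were usually kilobases apart. Between Zhx1-KO hnRNPA1 and control hnRNPA1, the closest pair of peaks was a median of 10.9 kb apart over the 16 members named in both, with 2 members under 1 kb. Between Zhx1-KO hnRNPA1 and ZHX1 it was 3.24 kb over 25 members, with 5 under 1 kb and 20 within 10 kb. Between ZHX1 and control hnRNPA1 it was 6.96 kb over 15 members, with 4 under 1 kb. List length was not held constant in these medians.

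Across the whole territory of members, 7.97 Mb in all, peak density was close to that of their chromosomes. Zhx1-KO hnRNPA1 had 23.5 peaks per Mb, 1.03 times the number at the density of each member's chromosome (0.890 to 1.19). ZHX1 had 11 per Mb, or 1.10 times (0.880 to 1.35), and control hnRNPA1 5.27 per Mb, or 0.818 times (0.590 to 1.11). All 3 intervals included 1. For members with territories under 200 kb the ratios were 1.32 in Zhx1-KO hnRNPA1 (1.02 to 1.66), 1.37 in ZHX1 (0.933 to 1.95) and 1.37 in control hnRNPA1 (0.836 to 2.12), so the Zhx1-KO interval then lay above 1 and the control hnRNPA1 ratio changed from below to above 1. For the classes the Zhx1-KO hnRNPA1 ratios were 1.10 for homeobox, 1.20 for bHLH and 0.891 for other genes, the ZHX1 ratios were 1.20, 1.55 and 0.802, and the control hnRNPA1 ratios 0.916, 0.833 and 0.662, with intervals that all included 1. Taken one by one, Lhx2 (2.79, 1.12 to 5.74) and Bcl11b (2.07, 1.13 to 3.48) had intervals above 1 in Zhx1-KO hnRNPA1. Intervals below 1 were found at Cux1 (0.137, 0.00347 to 0.763) and Satb1 (0.378, 0.139 to 0.822) in Zhx1-KO hnRNPA1 and at Bcl11a (0.342, 0.0705 to 0.999) in control hnRNPA1. These 5 were among 39 members and 3 lists. Chromosome 11, which holds Otx1, Bcl11a, Lhx1 and Neurod2, had 40.8 Zhx1-KO hnRNPA1 peaks per Mb, against 19.5 per Mb in the genome. Without these 4 members, the ratios were 1.08, 1.19 and 0.884. Within the gene body and 10 kb on either side the ratio was 1.21 in Zhx1-KO hnRNPA1 (0.909 to 1.57) and 1.74 in ZHX1 (1.22 to 2.41), so the ZHX1 interval lay above 1 close to the genes.

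In Zhx1-KO hnRNPA1, a larger share of member peaks than of all peaks was rich in CpG, and a smaller share was multi-copy. Multi-copy sequence made up 16.0% of member peaks (11 to 22.7%), against 31.4% of all Zhx1-KO hnRNPA1 peaks. It made up 13.4% of ZHX1 member peaks, against 25.3%, and 6 of 25 control hnRNPA1 member peaks, against 24.5%. A ratio of observed to expected CpG above 0.6, as in CpG islands, was found in 14.0% of Zhx1-KO member peaks (9.34 to 20.5%), against 6.56%. For ZHX1 it was 8.96%, against 5.90%, and for control hnRNPA1 1 of 25 peaks, against 3.36%. At promoters alone, the median CpG ratio of member peaks in Zhx1-KO hnRNPA1 was 0.721, against 0.292 over the promoter peaks of all genes, and the median GC content was 62.1%, against 53.6%. The ZHX1 promoter peaks of members had medians of 0.521 and 54.9%, against 0.284 and 52.0%.

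Motif matches are given as descriptions of the letters in these windows, on both strands. The core of the hnRNPA1 RNA site in its DNA form, TAGGG, was in 34.7% of Zhx1-KO hnRNPA1, 28.4% of ZHX1 and 5 of 25 control hnRNPA1 member peaks, against 35.3%, 34.5% and 35.0% of all peaks. CCAAT, the box bound by NF-Y, was in 26.7% of Zhx1-KO member peaks (20.2 to 34.3%), against 38.2% of all peaks. ZHX1 member peaks held it in 34.3%, against 36.4%, and control hnRNPA1 member peaks in 28.0%, against 36.3%. A G-quadruplex motif, 4 runs of at least 3 G, was in 18 of 150 Zhx1-KO member peaks (7.73 to 18.2%), against 5.53%. It was in 5.97% of ZHX1 member peaks, against 4.78%, and in 0 of 25 control hnRNPA1 member peaks, against 3.90%. At promoters it was in 7 of 19 Zhx1-KO member peaks (36.8%), against 14.95% of the promoter peaks of all genes. The G-quadruplex motif and CpG content move together with GC, and were not separated.

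**Figure D5:**
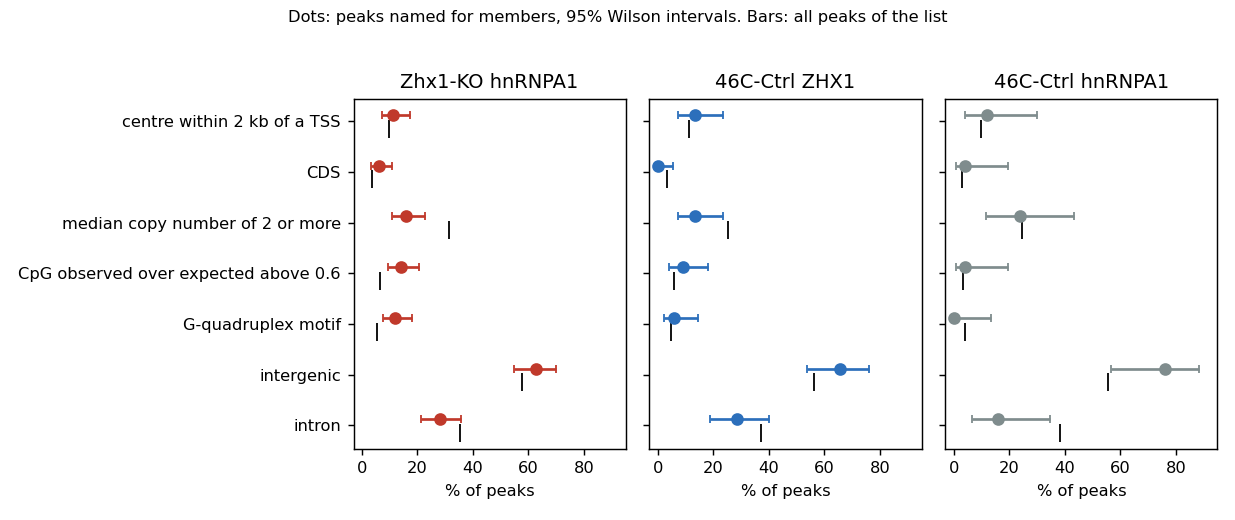
Share of the peaks named for members (%, dots with 95% Wilson intervals) that are close to any start site, in coding sequence, multi-copy, rich in CpG, with a G-quadruplex motif, intergenic or intronic, beside all peaks of the same list (black bars). Intergenic means outside protein-coding genes. In Zhx1-KO hnRNPA1 the member dot for multi-copy sequence stands at 16.0% beside a bar at 31.4%.

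Other developmental gene lists gave a point of reference for the promoter counts. Of 36 cardiac progenitor regulators, 15 had a Zhx1-KO hnRNPA1 promoter peak (41.7%), 10 a ZHX1 one (27.8%) and 0 a control hnRNPA1 one. Of 39 Hox genes the numbers were 15 (38.5%), 8 (20.5%) and 2 (5.13%), and of 55 other neural factors 13 (23.6%), 10 (18.2%) and 5 (9.09%). The members, with 15, 10 and 3 of 39, stood at 38.5%, 25.6% and 7.69%, against 21.0%, 12.1% and 6.77% of all genes. Shares above those of all genes in Zhx1-KO hnRNPA1 and ZHX1 were thus not particular to the members, and the cardiac progenitor regulators stood higher in both. The intervals of the other neural factors (14.37 to 36.35% and 10.19 to 30.33%) included the shares of all genes. No list was tested against another. Of the targeted and antigen genes, Zhx1 had 1 named peak in Zhx1-KO hnRNPA1, 1 in ZHX1 and 0 in control hnRNPA1, and Hnrnpa1 had 0 in all 3. Of the markers looked at, Isl1 (cardiac progenitor) had 15, 2 and 1 peaks and Nkx2-5 had 3, 5 and 0.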

How the data were processed

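ChIP-seq was run by the submitters on CP cells differentiated from mouse 46C embryonic stem cells, with 1 library each for Zhx1-KO hnRNPA1, ZHX1 and control hnRNPA1 and 2 input libraries for which no file was used here. Per the study's methods, reads were trimmed with cutadapt 1.18 and aligned with Bowtie2 2.3.5.1 to GRCm38, and unmapped, non-unique and duplicate reads were removed. BWA 0.7.12-r1039 and deepTools 3.3.0 are listed by the submitters' processing notes without a role. Which peak caller made the lists, at what threshold and with which input, is not given in the sources used here. Removing non-unique reads can leave gaps in repeated sequence. The deposited lists hold position, gene name and a constant strand for each peak, with no count, score or fold, so depth per sample is unknown and width stood in for a score.

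Starts were read as BED and are printed from 1. Protein-coding genes came from GENCODE M21 and sequence from RefSeq GRCm38. Noncoding genes were left out, so intergenic means outside protein-coding genes. Peaks were assigned by deposited name, by nearest protein-coding TSS, and to promoters within 2 kb of any TSS (Python 3.11.15, pandas 2.3.3, numpy 2.4.6, scipy 1.17.1). Copy number is the median genome count of a peak's 32-base words, with 2 or more called multi-copy. Shares have Wilson and counts exact Poisson 95% intervals. Scripts were tested on simulated peaks. Peaks were described one by one for members with a promoter peak, overlapping peaks or the most peaks of a list, and the other members by counts. The 39 members, their classes and the comparison lists were chosen with earlier results of these data known.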

Additional observations from a re-analysis of the deposited data

How the results depend on the processing

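Of 117 values recomputed under alternatives, 77 kept within 1.5 times the reported count or inside its interval, and 40 moved. With lists limited to the 14662 widest peaks, Zhx1-KO hnRNPA1 named 20 members with 46 peaks and had promoter peaks at 7 (4 homeobox, 1 bHLH), fewer than the 8 of ZHX1, and it overlapped control hnRNPA1 at 0 member peaks and ZHX1 at 0. With peaks wider than their list's median, 75 Zhx1-KO hnRNPA1 and 36 ZHX1 peaks were named, Zhx1-KO promoter peaks were at 8 members (5 homeobox, 1 bHLH), ZHX1 ones at 3 homeobox genes and control hnRNPA1 ones at 0 other genes, and each pair of lists overlapped at 1 peak. By gene body, 17, 12 and 5 members had a peak in Zhx1-KO hnRNPA1, ZHX1 and control hnRNPA1. Within 1 kb of a TSS, ZHX1 had 4 members (2 homeobox, 2 bHLH, 0 other), control hnRNPA1 1 (1 homeobox, 0 other) and Zhx1-KO hnRNPA1 1 other gene, and within 5 kb control hnRNPA1 had 1 bHLH gene. Below 2 copies the overlaps were 0 (Zhx1-KO with control hnRNPA1), 2 (Zhx1-KO hnRNPA1 with ZHX1) and 1 (ZHX1 with control hnRNPA1). At 50% of both peaks both Zhx1-KO overlaps were 0, and with centres within 1 kb ZHX1 and control hnRNPA1 met at 4. Density ratios were 1.21 and 1.74 within 10 kb of the gene body (Zhx1-KO hnRNPA1, ZHX1), and 1.32 (1.02 to 1.66), 1.37 (0.933 to 1.95) and 1.37 (0.836 to 2.12) for territories under 200 kb (Zhx1-KO hnRNPA1, ZHX1, control hnRNPA1), where the control hnRNPA1 ratio passed from below to above 1 and the Zhx1-KO interval lay above 1. Leaving out the 4 members on chromosome 11, chosen after seeing the data, left 116, 56 and 21 named peaks.

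No paired analysis was possible because each group had 1 library, and no replicate was left out. Peaks had no score, so the stricter lists rest on width, which differs between lists. The 10 bHLH and 8 other genes leave wide intervals.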
